A study of Mus musculus with 20 samples.

Results

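Transcripts of 10 genes that mark disease-associated microglia, Cst7, Spp1, Clec7a, Lgals3, Lgals3bp, Lyz2, Cd9, Cd63, Gpnmb and Csf1, were measured in 20 libraries of sorted microglia. The cells came from frontal cortex of mice aged 40 postnatal days. They are the genes of that signature outside lipid transport, taken by name, and make up 10 of the 54838 genes counted. Genotype labels were hC4A/A (n = 2), hC4A/- (n = 5), hC4B/- (n = 4), C4-/- (n = 5) and WT (n = 4). The mice are described as humanized transgenics, and hC4A and hC4B name the human C4 gene they carry, on 1 allele in hC4A/- and hC4B/- and on both in hC4A/A as the notation reads. The gate was high CD11b and low CD45, and 1000 cells were taken from each mouse per the labels' protocols, so a library was counted as a mouse. Strain, sex, litter and whether the mice with human C4 also lacked mouse C4 are not stated in the labels. The labels name no disease model and no aged animal.

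Microglia are the resident macrophages of the brain. The disease-associated state was described in mice around amyloid plaques and in other neurodegeneration, where microglia lower their homeostatic genes and raise genes of phagocytosis, lysosomes and lipid handling, with the receptor Trem2 needed for the full programme. Among the 10 genes, Csf1 encodes a ligand of the receptor that keeps microglia alive, Spp1 encodes osteopontin, a secreted protein that binds integrins, and Lgals3bp encodes a secreted glycoprotein that binds galectin-3, the product of Lgals3. Clec7a encodes dectin-1, a receptor for fungal beta-glucans, Gpnmb a transmembrane glycoprotein, and Cd9 and Cd63 are tetraspanins, Cd63 being a membrane protein of late endosomes and lysosomes. Lyz2 encodes lysozyme of myeloid cells and Cst7 encodes cystatin F, an inhibitor of lysosomal cysteine proteases. C4, a component of the classical complement pathway, is encoded in the mouse by C4b.

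Libraries held 855099 to 2735181 counts on genes, of which 13.3% to 81.0% fell on 13 satellite-like genes. C4b held 0, 0, 2 and 0 counts in the libraries labelled WT and 4 to 428 counts in each of the other 16 libraries, the opposite of what the names WT and C4-/- would give if read as presence and loss of mouse C4. The libraries are therefore named by their labels throughout, and each direction below is one between labels. All 20 homeostatic microglial genes were detected in every library, among them P2ry12 and Tmem119. In 4 libraries (hC4A/A replicate 2, hC4B/- replicates 2 and 3, C4-/- replicate 3) 27178 to 30907 genes were detected, against 11348 to 23912 in the other 16, and 47.6% to 63.6% of 1965 olfactory and vomeronasal receptor genes held a count, against 4.99% to 32.9%. These 4 are called broad libraries, and the fold changes of the tested genes of the group against WT are also given without them, where hC4A/A is 1 library (replicate 1) and hC4B/- is 2. No WT or hC4A/- library is among them. The sorted cells were sequenced in bulk, so fewer cells of a state and less RNA per cell cannot be told apart.

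The 10 genes were minor transcripts of these cells, and 3 of them held nearly all of the counts. Cd9, Cd63 and Lyz2 together took 91.4% of the 10892 counts of the group, with 6321, 2230 and 1407 counts over the 20 libraries. Lgals3bp held 538, Csf1 141, Lgals3 117, Cst7 58, Clec7a 29, Gpnmb 27 and Spp1 24 counts. The group made up 0.0183% to 0.0772% of each library's counts outside satellite-like genes. This share was 0.0208% to 0.0365% in the broad libraries, inside the range of the other 16. Cd9 had the highest CPM of the 10 genes in 16 libraries, Lgals3bp in 3 and Cd63 in 1, the last 4 being the broad libraries. CPM scales counts to the library size (per 1e+06) after correction by the trimmed mean of M values (TMM).

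Set per length, as mean CPM per kb of annotated exon over the 20 libraries, the order of levels was Cd9 at 77.4, Lyz2 at 27.4, Cd63 at 15.03, Lgals3bp at 5.91, Lgals3 at 1.76, Cst7 at 1.48, Csf1 at 0.879, Clec7a at 0.395, Spp1 at 0.245 and Gpnmb at 0.195. The homeostatic genes lay between 10.5 for Slc2a5, a sugar transporter, and 9313 for Cst3, cystatin C, on the same scale. Of those 20 genes 12 lay above Cd9 and 8 below it. None of the 20 lay below Lgals3bp or Cst7, so the genes from Lgals3bp downward ranked under every homeostatic gene measured. For every pair of neighbours in this order the ranges over the 20 libraries overlapped.

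**Figure D1:**
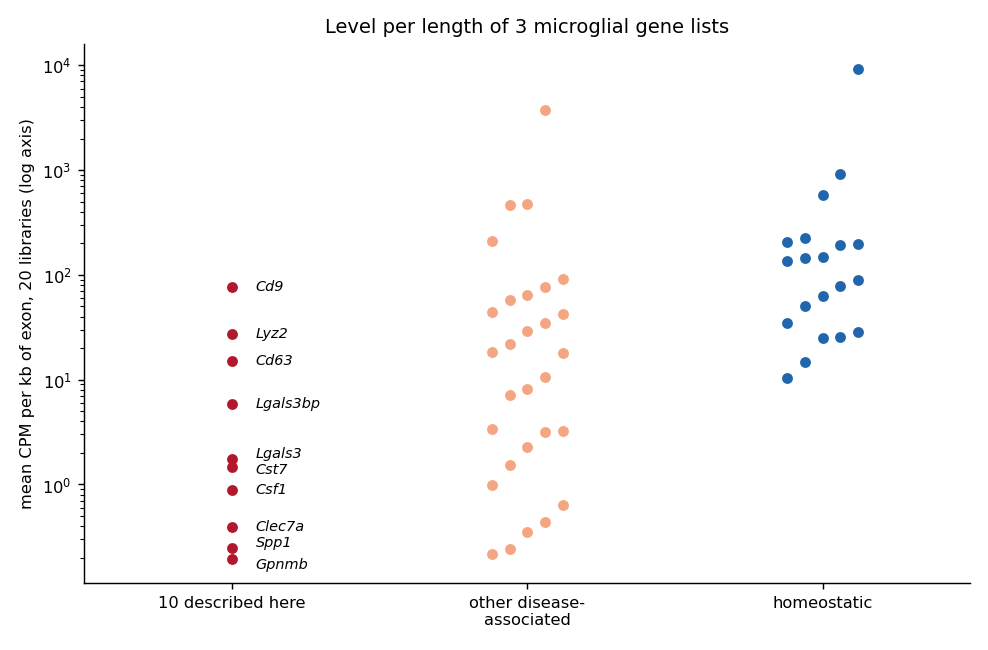
Mean level per length (CPM per kb of annotated exon, 20 libraries, log axis) of the 10 genes described here, of 30 further disease-associated microglia genes (Ch25h, at 0, is not drawn) and of 20 homeostatic genes. Each point is 1 gene; Cd9 at 77.4 stands inside the homeostatic range of 10.5 to 9313, and Gpnmb at 0.195 is the lowest of the 10.

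The promoters of the 3 most abundant genes are shown because those genes carry the counts on which the comparisons rest. They are RefSeq windows of 300 bases in GRCm38.p6, from 250 bases before to 50 after the annotated start, printed 5′ to 3′ on the gene's strand, with capitals for the ETS core GGAAGT on either strand. The Cd9 window is chr6:125494711-125495010 on the minus strand, the Cd63 window chr10:128909095-128909394 on the plus strand and the Lyz2 window chr10:117282223-117282522 on the minus strand.
Cd9: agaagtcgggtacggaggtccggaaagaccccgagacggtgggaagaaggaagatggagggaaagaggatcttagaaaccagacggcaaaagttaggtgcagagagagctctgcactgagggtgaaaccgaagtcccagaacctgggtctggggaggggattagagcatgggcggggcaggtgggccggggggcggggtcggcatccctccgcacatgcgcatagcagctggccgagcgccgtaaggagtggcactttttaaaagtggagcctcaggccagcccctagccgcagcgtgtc
Cd63: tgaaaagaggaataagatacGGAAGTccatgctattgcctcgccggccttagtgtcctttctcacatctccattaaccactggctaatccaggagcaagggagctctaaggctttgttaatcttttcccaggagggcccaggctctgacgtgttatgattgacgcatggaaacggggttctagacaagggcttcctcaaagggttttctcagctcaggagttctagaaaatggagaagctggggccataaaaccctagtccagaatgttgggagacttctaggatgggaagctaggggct
Lyz2: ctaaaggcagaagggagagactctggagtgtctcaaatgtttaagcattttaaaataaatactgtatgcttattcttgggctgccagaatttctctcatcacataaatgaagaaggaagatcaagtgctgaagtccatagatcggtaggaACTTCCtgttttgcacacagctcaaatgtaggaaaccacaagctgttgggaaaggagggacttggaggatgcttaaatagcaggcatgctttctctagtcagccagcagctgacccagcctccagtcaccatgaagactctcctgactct
The ETS core is the letters bound by the macrophage factor PU.1 and its relatives. It occurred once in the Cd63 and Lyz2 windows and not in the Cd9 window, and 4 of the 10 genes held it in a window (Cd63, Cst7, Lyz2 and Spp1), against 23.8% of 32851 mouse promoter windows. The AP-1 letters TGANTCA were present for 2 of the 10 genes (Cst7 and Gpnmb) and in 7.81% of all windows. TATAAA was present for 2 (Clec7a and Spp1) and in 13.6%. The E-box CACGTG was present for 0 of the 10 and in 7.15%. All motifs were sought on both strands, and Clec7a and Spp1 have 2 windows each. A match is a description of letters only.

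Cd9 (ENSMUSG00000030342, chromosome 6, 125460266 to 125494791, GRCm38) was the most abundant gene of the group and its level did not separate the genotypes. It held 220 and 10.3 CPM in hC4A/A, 112, 135, 105, 183 and 281 CPM in hC4A/-, and 324, 29.8, 39.0 and 180 CPM in hC4B/-. It held 176, 89.6, 35.0, 198 and 289 CPM in C4-/- and 183, 139, 267 and 170 CPM in WT. The groups overlapped in every pair, and the 4 lowest libraries of all 20 were the broad ones. Means were 115 ± 149 CPM in hC4A/A (SD, n = 2), 163 ± 72.5 in hC4A/- (n = 5), 143 ± 139 in hC4B/- (n = 4), 158 ± 98.8 in C4-/- (n = 5) and 190 ± 54.7 in WT (n = 4). The log2 fold change against WT was -0.71 ± 1.02 (SE) in hC4A/A, -0.22 ± 0.76 in hC4A/-, -0.40 ± 0.81 in hC4B/- and -0.27 ± 0.76 in C4-/-. None passed the edgeR quasi-likelihood test, with adjusted p of 0.837 to 1.00 over these comparisons. Without the 4 broad libraries the fold changes were 0.21, -0.19, 0.56 and -0.14, so that the sign turned in hC4A/A, then represented by 1 library, and in hC4B/-. The locus carries the antisense gene Gm26728 on the opposite strand with overlapping exons. The 2 stranded columns held 3724 and 3617 counts of Cd9, 7341 together, against 6321 in the column that ignores strand, and for the other 9 genes the sums were equal. The Cd9 values used here therefore leave out 1020 counts that the stranded columns give to Cd9. Which of these came from Cd9 and which from Gm26728 cannot be told apart, so through this overlap the values can be too low by at most that amount. Multimapping reads were left out as well. Of the 50-base stretches of Cd9 exons 14.4% also occur in other genes, 8.48% in Gm26728.

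Cd63 (ENSMUSG00000025351, chromosome 10, 128900989 to 128912822) was lowest in the same library as Cd9, hC4A/A replicate 2. It held 46.2 and 6.41 CPM in hC4A/A, 75.7, 29.2, 27.9, 88.5 and 118 CPM in hC4A/-, and 119, 10.7, 55.8 and 20.3 CPM in hC4B/-. It held 86.0, 17.6, 8.42, 44.6 and 127 CPM in C4-/- and 81.5, 26.7, 59.9 and 58.2 CPM in WT. Every group overlapped every other, and the means of 4 genotypes lay within 51.4 to 67.8 CPM, with 26.3 CPM in hC4A/A. Its log2 fold change against WT was -1.07 ± 1.06 in hC4A/A, 0.26 ± 0.79 in hC4A/-, -0.13 ± 0.83 in hC4B/- and 0.00 ± 0.78 in C4-/-, the last with a 95% interval of -1.59 to 1.60. Without the 4 broad libraries the values were -0.31, 0.26, 0.36 and 0.05, so that the sign turned in hC4B/-. Without hC4A/A replicate 2 alone the hC4A/A value was -0.25, and without hC4B/- replicate 1, its highest library, the hC4B/- value was -1.22. Exon sequence is shared with the pseudogene Cd63-ps for 9.70% of its 50-base stretches.

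The pair of tetraspanins was read against each other. The ratio of Cd9 to Cd63 CPM was 4.77 and 1.60 in hC4A/A, 1.48 to 4.62 in hC4A/-, 0.699 to 8.86 in hC4B/-, 2.05 to 5.11 in C4-/- and 2.25 to 5.18 in WT. Both ends of the whole range lay in hC4B/-, with Cd63 above Cd9 in its broad replicate 3 alone of the 20 libraries. Pearson's r of the log2 CPM of Cd9 and Cd63 was 0.79 over 20 libraries and 0.70 over the 16 others, values that share library and depth and are given as a description. The 3 genes whose log2 CPM followed that of Cd9 most closely over the 20 libraries were Rps3a1, a ribosomal protein gene, Ddx5, an RNA helicase gene, and Calm2, a calmodulin gene, with r of 0.93 for each. Over the 16 others those values were 0.73, 0.50 and 0.63. For the other genes of the group the correlation with Cd9 over 20 and 16 libraries was 0.63 and 0.29 for Lyz2, -0.36 and 0.45 for Lgals3bp, -0.40 and 0.12 for Csf1, and 0.02 and -0.02 for Lgals3.

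**Figure D2:**
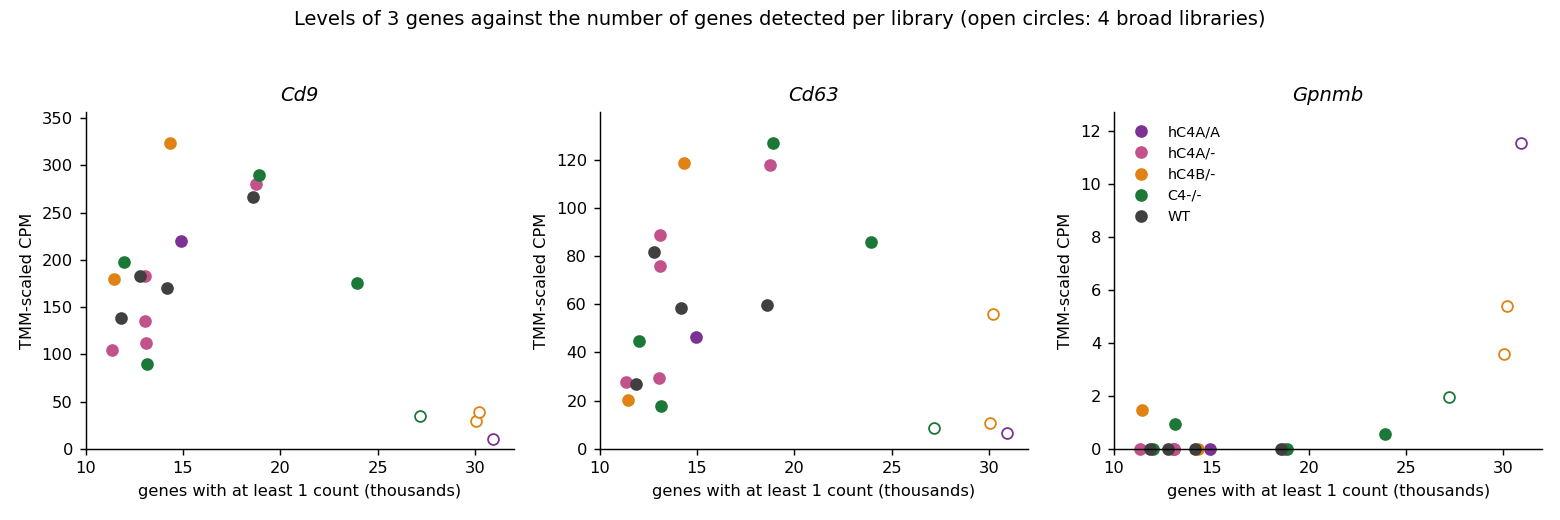
TMM-scaled CPM of Cd9, Cd63 and Gpnmb (linear axes) against the number of genes with at least 1 count in each of 20 libraries, coloured by genotype label; open circles are the 4 broad libraries. Cd9 lay at 10.3 to 39.0 CPM in the broad libraries and at 89.6 to 324 in the other 16, and Gpnmb at 1.94 to 11.5 in the broad libraries and at 0 to 1.45 in the other 16. The library sizes behind the CPM include satellite-like genes.

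Lyz2 (ENSMUSG00000069516, chromosome 10, 117277331 to 117282321) had its highest mean in WT, and 1 of its comparisons had an unadjusted p under 0.05, which did not hold after adjustment. It held 36.0 and 5.13 CPM in hC4A/A, 34.1, 12.7, 17.7, 23.1 and 104 CPM in hC4A/-, and 23.2, 3.58, 40.4 and 13.8 CPM in hC4B/-. It held 15.4, 22.2, 12.3, 39.3 and 38.2 CPM in C4-/- and 36.6, 135, 59.1 and 48.2 CPM in WT. All 4 WT libraries lay above both hC4A/A libraries, 36.6 CPM being the lowest of WT and 36.0 CPM the highest of hC4A/A, and the other genotypes overlapped WT. With 2 libraries in hC4A/A, 1 of them broad, and the share of all genes so separated not counted, this gap is a description only. Means were 20.6 ± 21.9 CPM in hC4A/A, 38.4 ± 37.7 in hC4A/-, 20.2 ± 15.6 in hC4B/-, 25.5 ± 12.6 in C4-/- and 69.8 ± 44.5 in WT (SD). In hC4B/- against WT the log2 fold change was -1.77 ± 0.83, with a 95% interval of -3.47 to -0.07, an unadjusted p of 0.0419 and an adjusted p of 0.378 by edgeR. It was -1.72 ± 1.08 in hC4A/A (adjusted p = 0.659), -1.45 ± 0.77 in C4-/- (0.606) and -0.85 ± 0.76 in hC4A/- (0.971), all against the same 4 WT libraries by edgeR. Without the broad libraries the fold changes were -1.07 in hC4A/A, -1.02 in hC4A/-, -1.86 in hC4B/- and -1.45 in C4-/-, and the unadjusted p in hC4B/- was 0.0590 (adjusted p = 0.701, edgeR). A joint F test across the 5 genotypes gave Lyz2 an adjusted p of 0.590, the lowest of the 6 genes tested.

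Lyz2 is expressed by neutrophils and monocytes as well as by microglia. Neutrophil markers were highest in WT replicate 2, and WT overlapped hC4A/-, hC4B/- and C4-/- in them. The summed CPM of 8 neutrophil markers was 100 to 1408 in the 4 WT libraries, all of which held 7 or 8 of the 8 markers. It was 47.4 to 70.2 in hC4A/A, 0.531 to 113 in hC4A/-, 0 to 174 in hC4B/- and 0 to 144 in C4-/-. S100a8, S100a9 and the 6 other markers were all at 0 in C4-/- replicates 2 and 4 and in hC4B/- replicate 1, in which Lyz2 was 22.2, 39.3 and 23.2 CPM. WT replicate 2 had both the highest marker sum, 1408 CPM, and the highest Lyz2, 135 CPM. Without it the log2 fold change of Lyz2 was -1.07 in hC4A/A, -0.30 in hC4A/-, -1.05 in hC4B/- (unadjusted p = 0.222, edgeR) and -0.89 in C4-/- against WT. hC4A/- replicate 5 was the second highest for Lyz2, at 104 CPM, with a neutrophil marker sum of 1.68 CPM and a monocyte marker sum of 12.4 CPM. Summed monocyte markers were 26.1 to 74.6 CPM in WT and 1.85 to 70.5 CPM in the other genotypes. The part of these cells in the Lyz2 difference was not tested. The paralog Lyz1 held 3 counts in all, 1 in C4-/- replicate 1 and 2 in C4-/- replicate 3, and 15.4% of the 50-base stretches of Lyz2 exons also occur in Lyz1.

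**Figure D3:**
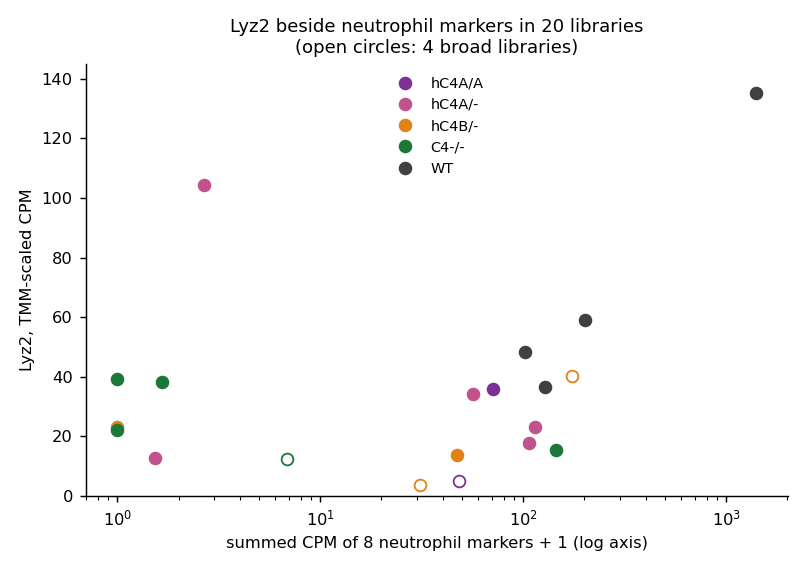
Lyz2 (TMM-scaled CPM, linear axis) against the summed CPM of 8 neutrophil markers plus 1 (log axis) in 20 libraries, coloured by genotype label; open circles are the 4 broad libraries. The 4 WT libraries lie at marker sums of 100 to 1408 CPM with Lyz2 at 36.6 to 135 CPM, and hC4A/- replicate 5 has 104 CPM of Lyz2 at a marker sum of 1.68 CPM.

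Cst7 (ENSMUSG00000068129, chromosome 2, 150570415 to 150578944) held 58 counts in all and did not pass the filter on low counts, so it was not tested. Its counts were 5 and 0 in hC4A/A, 0, 3, 0, 2 and 4 in hC4A/-, and 3, 1, 1 and 0 in hC4B/-. They were 9, 3, 3, 0 and 6 in C4-/- and 13, 1, 0 and 4 in WT. It was present in some and absent from other libraries of every genotype. The mean was 2.76 ± 1.96 CPM in C4-/-, the highest of the 5 labels, and 0.783 to 1.65 CPM in the others. C4-/- replicate 1, with the highest Cst7 of 5.12 CPM, also had the highest sum of 8 lymphocyte markers, 256 CPM, against 15.7 to 132 CPM in the other 19 libraries. Of that sum 224 CPM was Ighm, an antibody heavy chain gene of B cells, and 27.9 CPM Cd79b, another B cell gene. The markers of T and cytotoxic cells were near 0 in that library, with Nkg7 at 1.14, Cd3d at 0.569 and Cd3e and Trbc1 at 0 CPM. Other libraries did not pair the 2 in this way. WT replicate 1 held Cst7 at 4.29 CPM with a lymphocyte marker sum of 41.6 CPM. In hC4B/- replicate 1 that sum was 132 CPM and Cst7 1.27 CPM. Cst7 is also expressed by cytotoxic lymphocytes, while the cells were gated on high CD11b and low CD45. The part of such cells was not tested.

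Lgals3bp (ENSMUSG00000033880, chromosome 11, 118392751 to 118402092) had a fitted fold change above 0 in each genotype against WT, with no call. It held 5.74 and 21.8 CPM in hC4A/A, 8.19, 11.7, 21.1, 6.94 and 11.8 CPM in hC4A/-, and 31.7, 46.5, 33.6 and 3.62 CPM in hC4B/-. It held 15.9, 3.70, 43.4, 4.25 and 33.6 CPM in C4-/- and 9.57, 0.704, 18.9 and 3.62 CPM in WT. All 4 broad libraries exceeded every WT library, and so did hC4A/- replicate 3, hC4B/- replicate 1 and C4-/- replicate 5. The log2 fold change against WT was 0.72 ± 1.17 in hC4A/A, 0.54 ± 0.92 in hC4A/-, 1.81 ± 0.99 in hC4B/- and 1.30 ± 0.94 in C4-/-. In hC4B/- the unadjusted p was 0.0758 and the adjusted p 0.409 by edgeR, with a 95% interval of -0.20 to 3.82. Without the broad libraries those values were -0.40, 0.77, 1.28 and 0.67.

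Lgals3 (ENSMUSG00000050335, chromosome 14, 47367751 to 47386160), which encodes the galectin that Lgals3bp binds, was uneven within genotypes. It held 2.87 and 1.28 CPM in hC4A/A, 5.46, 0, 1.36, 0 and 0.336 CPM in hC4A/-, and 0, 3.58, 1.35 and 1.45 CPM in hC4B/-. It held 24.5, 0, 0.648, 0 and 11.2 CPM in C4-/- and 3.30, 2.11, 0 and 6.03 CPM in WT. The 2 highest of all 20 libraries and 2 of the 6 libraries at 0 carried the same label, C4-/-. C4-/- replicate 1 alone held 43 of the 117 counts, and without it the fold change of C4-/- against WT had its lowest value under leaving out 1 library, -0.45, in place of 1.30 ± 1.49. Against C4-/- the log2 fold change was -1.73 ± 2.01 in hC4A/A, -2.34 ± 1.45 in hC4A/- and -2.23 ± 1.59 in hC4B/-, with adjusted p of 1.00, 0.541 and 0.989 by edgeR. Without the broad libraries these were -1.28, -2.16 and -3.01, and against WT the fold changes were -0.13 in hC4A/A, -1.01 in hC4A/-, -1.86 in hC4B/- and 1.15 in C4-/-, in place of -0.42, -1.04, -0.93 and 1.30. A library with 0 counts allows up to 3 counts, which is 0.957 to 3.85 CPM over the 20 libraries, so levels under that bound were not distinguishable from 0 at this depth.

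Csf1 (ENSMUSG00000014599, chromosome 3, 107741048 to 107760469) was detected in 18 of the 20 libraries at 0 to 10.9 CPM. It held 0.638 and 8.98 CPM in hC4A/A, 10.9, 7.96, 0, 0 and 1.01 CPM in hC4A/-, and 4.22, 9.54, 7.40 and 7.96 CPM in hC4B/-. It held 4.55, 1.85, 7.13, 4.25 and 5.92 CPM in C4-/- and 1.32, 0.704, 5.31 and 3.21 CPM in WT. All groups overlapped, the hC4B/- libraries spanning 4.22 to 9.54 CPM and the WT libraries 0.704 to 5.31 CPM. The log2 fold change against WT was 1.45 ± 1.27 in hC4B/-, with an adjusted p of 0.602 by edgeR, and 0.59 to 0.85 in the other 3 genotypes. Without the broad libraries it was -1.87 in hC4A/A, 0.77 in hC4A/-, 1.51 in hC4B/- and 0.59 in C4-/-.

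The remaining 3 genes, Clec7a, Gpnmb and Spp1, held 80 counts together and were not tested. Clec7a (ENSMUSG00000079293, chromosome 6, 129461591 to 129472779, annotated as a polymorphic pseudogene in the GENCODE release used) had 15 of its 29 counts in hC4A/- replicate 3, at 10.2 CPM, and 0 to 2.81 CPM in the other 19 libraries. By label its counts were 0 and 1 in hC4A/A, 0, 0, 15, 0 and 1 in hC4A/-, 1, 2, 0 and 1 in hC4B/-, 0, 0, 0, 1 and 1 in C4-/-, and 0, 4, 2 and 0 in WT. No genotype held it in every library.

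Gpnmb (ENSMUSG00000029816, chromosome 6, 49036546 to 49070929) was found mostly in the broad libraries. Its counts were 0 and 9 in hC4A/A, 0 in all 5 hC4A/- libraries, and 0, 3, 8 and 2 in hC4B/-. They were 1, 1, 3, 0 and 0 in C4-/- and 0 in all 4 WT libraries. The 4 broad libraries held 23 of the 27 counts, at 1.94 to 11.5 CPM, against 0 to 1.45 CPM in the other 16. C4b was higher in the same libraries, at 102 to 348 CPM against 0 to 59.2 CPM. Homeostatic genes went both ways in them. Fcrls, a homeostatic receptor gene, was lower, at 291 to 584 CPM against 1397 CPM or more in the other 16. Csf1r and Sall1, of the same list, had medians of 1718 and 269 CPM in the broad libraries against 519 and 110 CPM. The broad libraries were told apart by the genes detected in them, and no test was made between them and the rest. Read without them, Gpnmb was left with 4 counts in 3 libraries, 1 and 1 in C4-/- and 2 in hC4B/-.

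Spp1 (ENSMUSG00000029304, chromosome 5, 104435118 to 104441050) was found in a single library. All 24 of its counts lay in hC4A/- replicate 5, at 8.07 CPM, and the other 19 libraries held 0. That library also had Lyz2 at 104 CPM and the highest sum of 8 neuronal markers, 115 CPM, against 2.65 to 88.7 CPM in the other 19. Of that sum 112 CPM was Snap25 alone, and the part of neuronal material was not tested. In a fit with no filter on low counts, Spp1 passed the F test across the 5 genotypes (adjusted p = 0.0198, edgeR) on these counts of 1 library. The predicted gene Gm42793 lies on the same strand within Spp1 and shares 11.6% of its 50-base stretches. Among the 3 genes the largest shares of counts lay in single libraries, 100% for Spp1, 51.7% for Clec7a and 33.3% for Gpnmb.

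**Figure D4:**
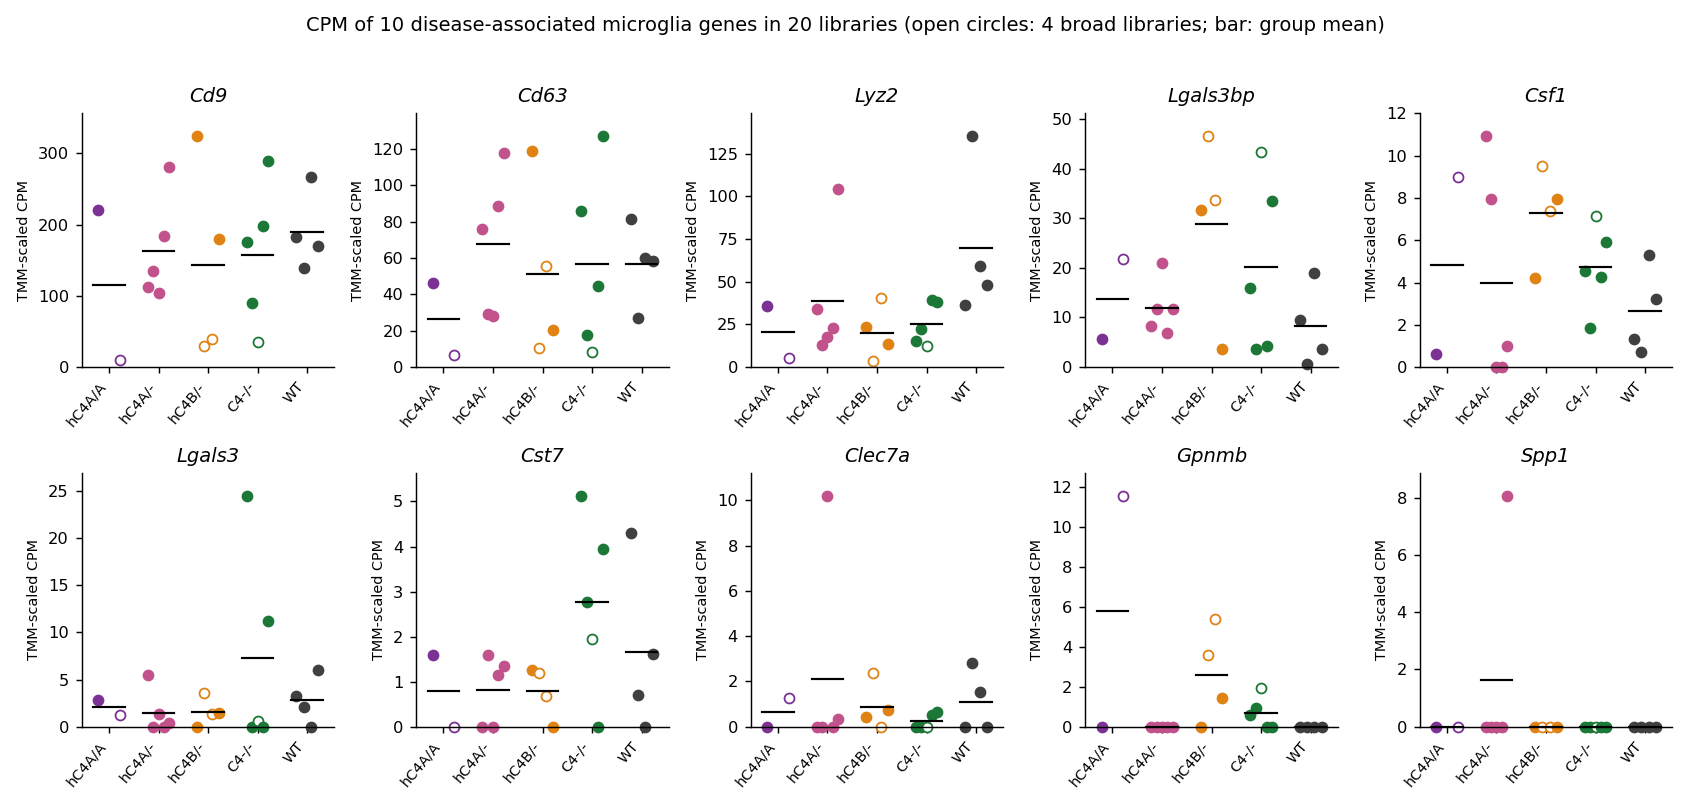
TMM-scaled CPM (linear axes from 0) of the 10 genes in 20 libraries, by genotype label from hC4A/A to WT; each circle is 1 library, open circles are the 4 broad libraries and bars are group means. The broad libraries are the lowest for Cd9 (10.3 to 39.0 CPM), 1 library holds all Spp1 (8.07 CPM), and the WT libraries are at 36.6 to 135 CPM for Lyz2.

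Tests across the genotypes were made on the 6 genes that passed the filter on low counts, out of 12680 genes tested, and on none of the other 4. Over 9 pairs of genotypes the 6 genes gave 54 tests, of which 0 had an adjusted p under 0.05 and 1, Lyz2 in hC4B/- against WT, an unadjusted p under 0.05 by edgeR. DESeq2 and limma voom also called 0 of the 54. Against WT, edgeR called 0 of the 6 genes in hC4A/A, hC4A/-, hC4B/- and C4-/-, and 0% of all genes tested in each. At an unadjusted p under 0.05 it gave 0 of 6 in hC4A/A against 8.41% of all genes, 0 of 6 in hC4A/- against 7.51%, 1 of 6 in hC4B/- against 13.1% and 0 of 6 in C4-/- against 8.53%. Against C4-/-, 0 of 6 were called in hC4A/A, hC4A/- and hC4B/-, as were 0% of all genes. The counts at an unadjusted p under 0.05 were 0 of 6 in hC4A/A beside 2.17% of all genes, 0 of 6 in hC4A/- beside 10.7% and 0 of 6 in hC4B/- beside 4.52%. In hC4A/- against hC4B/- 0 of 6 had an adjusted p under 0.05, beside 0% of all genes, and 0 of 6 an unadjusted one, beside 16.7%. In hC4A/A against hC4A/- those counts were 0 of 6 beside 0% and 0 of 6 beside 11.5%. The F test over the 5 genotypes called 0 of 6, beside 0.118% of all genes, and gave 0 of 6 an unadjusted p under 0.05, beside 12%.

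The median log2 fold change of the 6 genes against WT was -0.57 in hC4A/A, 0.02 in hC4A/-, -0.27 in hC4B/- and 0.43 in C4-/-. Over all genes tested it was 0.18, -0.05, 0.18 and 0.33 in the same comparisons, and scaling by relative log expression moved these all-gene medians to 0.48, -0.03, 0.53 and 0.39. All 4 comparisons share the WT libraries. Against C4-/- the median of the 6 was -0.51 for hC4A/A, -0.11 for hC4A/- and -0.14 for hC4B/-, beside -0.02, -0.32 and -0.03 over all genes. It was 0.04 in hC4A/- against hC4B/-, with -0.14 over all genes, and -0.16 in hC4A/A against hC4A/-, with 0.17 over all genes. Without the broad libraries the medians of the 6 against WT were -0.36, 0.04, 0.46 and 0.32, beside -0.30, 0.01, -0.20 and 0.02 over all genes, so that the sign for hC4B/- turned. The width of the intervals sets a lower bound on what could be seen. The 95% half-width on the log2 scale was 1.47 to 2.08 for Cd9, 1.51 to 2.17 for Cd63, 1.48 to 2.20 for Lyz2, 1.75 to 2.40 for Lgals3bp, 2.27 to 3.13 for Csf1 and 2.96 to 4.09 for Lgals3. Smaller differences were not detectable here, and larger ones could also miss a call, which rested on the adjusted p. Lyz2 in hC4B/- against WT had an interval clear of 0 and no call. C4b in the same comparison had a log2 fold change of 8.66 with an adjusted p of 0.0919 by edgeR, also no call. An adjusted p above the threshold does not show that genotypes were alike.

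**Figure D5:**
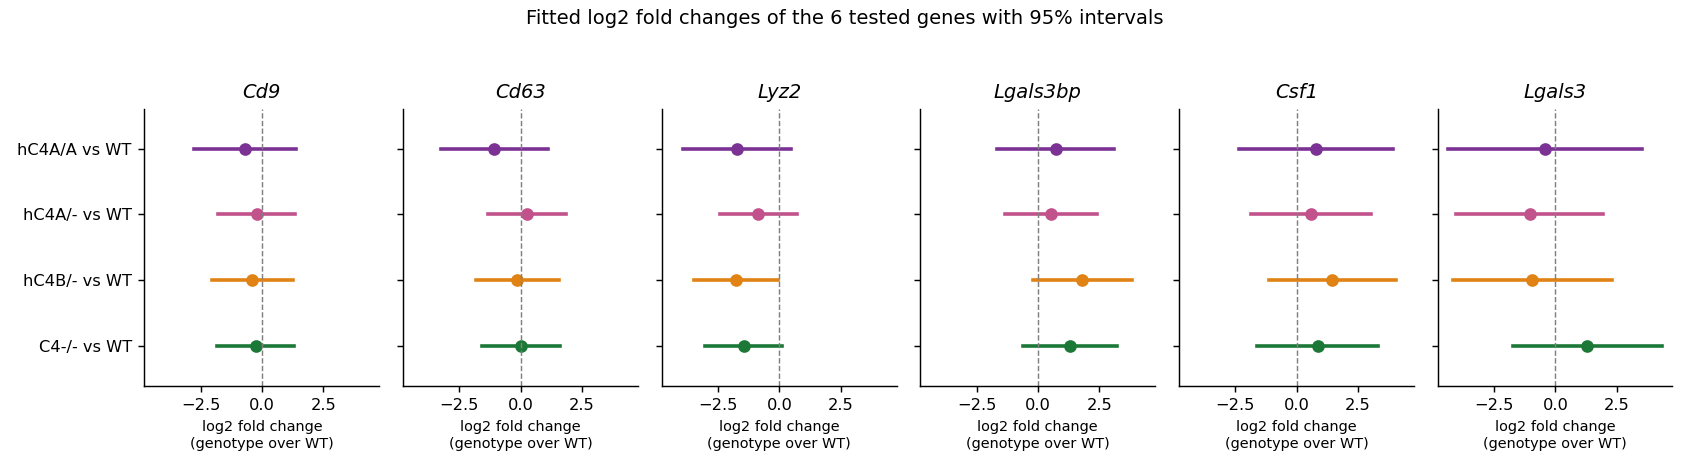
Fitted log2 fold changes (points) of the 6 tested genes in hC4A/A, hC4A/-, hC4B/- and C4-/-, each over WT, with 95% intervals (lines) from the edgeR fit to 20 libraries. All intervals contain 0 apart from Lyz2 in hC4B/- (-3.47 to -0.07), whose adjusted p is 0.378.

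The wider signature was read from 30 further disease-associated genes, of which 27 passed the filter, and from the 20 homeostatic genes, all of which passed. edgeR called 0 of the 27 and 0 of the 20 in each of the 9 pairs and in the F test. At an unadjusted p under 0.05, 2 of the 27 were higher in hC4A/A than in WT (Itgax and Igf1), 2 in hC4A/- (Plin2 and Axl), 1 in hC4B/- (Itgax) and 0 in C4-/-. Of all 12680 genes tested, 931, 430, 1173 and 730 were higher at such a p in these comparisons. Itgax and Axl had medians of 0.841 and 0.762 CPM over the 20 libraries. Without the broad libraries hC4A/A is 1 library and is left out of this count. In the other genotypes 3 of 26 then had such a p in either direction in hC4A/- and 0 in hC4B/- and C4-/-. Over all 12397 genes then tested, 1253, 874 and 1118 had such a p. Of the 20 homeostatic genes 0 had such a p in hC4A/A, hC4A/- or C4-/- against WT, beside 8.41%, 7.51% and 8.53% of all genes. The count for hC4B/- is not reported here. The median log2 fold change of the 27 against WT was -0.50 in hC4A/A, 0.11 in hC4A/-, -0.08 in hC4B/- and 0.21 in C4-/-, and that of the homeostatic genes was -0.13, -0.29, 0.10 and 0.15. Without the broad libraries 26 of the disease-associated genes passed the filter, with medians of -0.04, 0.04, 0.16 and 0.16, and the homeostatic medians were -0.08, -0.22, -0.09 and -0.10. The sign turned in hC4B/- for both lists and in C4-/- for the homeostatic genes.

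Within these lists the genes with the smallest p in the F test were Igf1, Ccl3 and Ank among the disease-associated genes, and those of the homeostatic genes included Rhob and Selplg. Igf1, an insulin-like growth factor of microglia, held 20.7 and 10.3 CPM in hC4A/A, 0.682, 0.531, 0, 0 and 0 CPM in hC4A/-, and 0, 5.96, 2.69 and 0 CPM in hC4B/-. It held 1.71, 0, 3.24, 0 and 0.658 CPM in C4-/- and 1.98, 0, 0 and 0 CPM in WT. Both hC4A/A libraries, the broad one and the other, were above the 18 libraries of the other labels, and the share of all genes so separated was not counted. The gap rests on few counts. It lies between 10.3 CPM in hC4A/A replicate 2 and 5.96 CPM in hC4B/- replicate 2, both broad. In these 2 libraries 3 counts are 3.85 and 3.58 CPM, so the gap is a description only. The F test gave Igf1 an unadjusted p of 0.0157 and an adjusted p of 0.369 by edgeR, and hC4A/A against WT a log2 fold change of 4.64 ± 1.89 (adjusted p = 0.557), which was 4.99 (adjusted p = 0.987) without the broad libraries. Rhob, a small GTPase gene, averaged 137 ± 102 CPM in hC4A/A, 38.0 ± 8.06 in hC4A/-, 226 ± 247 in hC4B/-, 141 ± 112 in C4-/- and 72.6 ± 46.0 in WT, with an adjusted p of 0.383 in the F test by edgeR. Its 4 highest libraries were the broad ones, at 209 to 559 CPM. Without them Rhob was at 64.1 CPM in hC4A/A and averaged 38.0 in hC4A/-, 38.0 in hC4B/-, 98.7 in C4-/- and 72.6 CPM in WT, with an adjusted p of 0.713 in the same edgeR F test. The adjusted p of Ccl3, a chemokine gene, was 0.525, that of Ank 0.540 and that of Selplg 0.620, in the same edgeR F test.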

How the data were processed

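RNA of sorted microglia was turned into cDNA by template switching, amplified and made into Nextera libraries, per the labels' protocols. The authors deposited raw counts of reads per gene for each library, in the layout of a STAR gene count. The tools named in the submitters' processing notes are STAR and edgeR, on GRCm38, with no versions. The column that ignores strand was used, since the stranded columns split each library nearly evenly (49.7% to 49.9% on the first). Summary lines for unmapped reads (14.8% to 42.1% of reads), multimapping reads (13.2% to 28.9%), reads on no gene (21.8% to 42.1%) and ambiguous reads (0.897% to 5.86%) stayed out of library sizes and tests. A deposited matrix of the whole series was not used. No molecular identifiers are described for the amplified cDNA, and floors of 3 counts therefore cover counting error only.

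Gene symbols, exon lengths and coordinates were taken from GENCODE annotation of GRCm38, and promoters from RefSeq (GRCm38.p6), where all 10 genes matched. Genes were filtered with filterByExpr by genotype (12680 kept) and scaled by TMM. All 20 libraries entered 1 robust quasi-likelihood model in edgeR 4.0.16 (R 4.3.3) with 1 coefficient per genotype, no covariate and 15 residual degrees of freedom. The common dispersion was 1.07, and p values were Benjamini-Hochberg adjusted over all genes tested, with a threshold of 0.05. Standard errors are the size of the log2 fold change divided by the root of F. The scripts were tested on simulated data. Alternatives were scaling by relative log expression, DESeq2 1.42.0, limma voom (limma 3.58.1), no filter, leaving out satellite-like genes, the broad libraries or each library in turn, and a replicate block. Correlations use log2 CPM with a prior count of 2.

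The 10 genes, the lists and the alternatives were chosen with earlier results of these data known, so no p is given over a list. Named beside the 10 genes are C4b, Lyz1, the 3 genes with the smallest p in the F test from each of the other disease-associated and the homeostatic lists, and the 3 genes most correlated with the member of highest mean CPM. One gene that this rule names is not reported here. Fcrls, Csf1r, Sall1, Slc2a5, Cst3 and the genes with an unadjusted p under 0.05 in a list were named after their values were seen. Groups were the genotype labels, and where nothing says that mice were littermates or processed together, p values measure the spread between these libraries.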

Additional observations from a re-analysis of the deposited data

Results flagged for a closer look

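In 4 of 35 sets of libraries of 1 gene and 1 genotype, the highest library stood apart from the others by more than Dixon's 95% value. Chance gives about 1 in 20 sets for normally distributed values, which sparse counts are not. A set with a single library above 0, as for Spp1, is flagged at any level. The number of flagged sets is therefore not read against that rate. All 4 lay in hC4A/-.

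Spp1 was at 8.07 CPM in hC4A/- replicate 5 and at 0 in the other 4 libraries of that label. Lyz2 was at 104 CPM in the same library, and at most 34.1 CPM in the other 4. Clec7a was at 10.2 CPM in hC4A/- replicate 3, with 0.336 CPM as the nearest value. Lgals3 was at 5.46 CPM in hC4A/- replicate 1, from 8 counts, with 1.36 CPM as the nearest value. Without replicate 5 the log2 fold change of Lyz2 in hC4A/- against WT was -1.61 in place of -0.85, with an unadjusted p of 0.0518 by edgeR. Without replicate 1 that of Lgals3 in hC4A/- against WT was -2.66 in place of -1.04.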

How the results depend on the processing

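No alternative changed a call over the 54 tests of the 6 genes in pairs of genotypes: 0 were called in all 27 other fits. The F test across the 5 genotypes called 1 of the 10 genes (Spp1, adjusted p = 0.0198) with no filter on low counts and 0 in the other fits. Of the 54 fold changes, 5 turned sign under relative log expression scaling, 5 under DESeq2, 7 under limma voom, 8 with no filter, 7 without satellite-like genes, 18 without the 4 broad libraries and 0 to 9 when 1 library was left out. Lyz2 in hC4B/- against WT ran from -2.26 to -1.05 over the latter fits, and Lgals3bp from 1.43 to 2.59. Lyz2 in C4-/- against WT ran from -1.86 to -0.89. Without hC4A/A replicate 1, Cd9 in hC4A/A against WT was -4.11 (unadjusted p = 0.0105, adjusted p = 0.158), the broad library then standing alone and assumed to vary like the other groups. The cause of these shifts was not tested.

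Deviations of same-numbered libraries of different genotypes had correlations of -0.30 to 0.70 (median 0.01, 33 pairs, 5 above 0.1). For differently numbered libraries of different genotypes these were -0.71 to 0.71 (median -0.001, 124 pairs, 12 above 0.1). With a replicate block, 0 of the 54 tests were called, 5 signs turned, Lyz2 in hC4B/- against WT was -1.97, and the F test called 0 genes in all.

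Over all genes, DESeq2 called 2, 21, 53 and 20 in hC4A/A, hC4A/-, hC4B/- and C4-/- against WT, 0, 10 and 3 in hC4A/A, hC4A/- and hC4B/- against C4-/-, 58 in hC4A/- against hC4B/-, 1 in hC4A/A against hC4A/- and 65 in the F test. With no filter those counts were 3, 65, 28 and 26, then 0, 53 and 16, then 36, 0 and 697. limma voom called 1 in hC4A/- against WT, 1 in hC4A/- against C4-/- and 6 in hC4A/A against hC4A/-. For the F test, edgeR gave 15 genes, 24 with relative log expression scaling, 38 without satellite-like genes, 2 without the broad libraries and 0 with limma voom. edgeR gave 1 gene in hC4A/- against WT without the broad libraries. Leaving out 1 library gave 0 to 34 genes in the F test, 0 to 5 in hC4A/- against hC4B/-, 0 to 2 in hC4B/- against WT, 0 to 1 in hC4A/A against WT and 0 in the other pairs. At 24 to 58 counts over 20 libraries, depth limits what can be said of Cst7, Spp1, Clec7a and Gpnmb.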
